A study of Mus musculus with 24 samples.

Results

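Chst11, Chsy1, Dlg5, Acot7, Endod1, Samd3, Ctla2b, Rgcc, Tmie and Cirbp are described here in splenic T cells across 8 groups of mouse libraries. They are 10 of the 34111 genes with usable values, selected on their counts in knockout against wild type libraries, where each differed in the same direction in several comparisons. Atm encodes a kinase that is activated by broken DNA. The libraries hold polyadenylated RNA of T cells isolated from spleens of C57BL/6N mice, and each read marks the 3′ end of a transcript. Mice were wild type (Atmwt/wt, WT) or knockout (Atm-/-, KO) and carried either no transplant (control) or a transplanted B-cell lymphoma. CD4 and CD8 libraries came from the same mice in each case, which gave the 8 groups of 3 libraries. The 24 libraries came from 12 pools holding 22 mice, and each WT lymphoma library came from 1 mouse. Ages, the disrupted part of Atm, the line of lymphoma and how CD4 and CD8 cells were separated are not given in the sources used here.

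Chondroitin sulfate is a sugar chain that T cells attach to carrier proteins of their granules and surface. Chsy1 lengthens the chain and Chst11 adds sulfate to it. The other members work apart from it: Dlg5 is a scaffold protein of the membrane guanylate kinase family, Acot7 cleaves fatty acyl-CoA esters, and Ctla2b is a small inhibitor related to the propeptide of cysteine cathepsins. Rgcc is known as a regulator of the cell cycle, Tmie as a part of the mechanotransduction channel of inner ear hair cells, and Cirbp as an RNA-binding protein induced by mild cold. Endod1 holds a nuclease-like domain and Samd3 a sterile alpha motif.

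Where these genes begin is shown first, since Ctla2b has a near copy, Ctla2a, and reads from the pair may be split between them. RefSeq promoters (GRCm38.p6) were matched for 9 of the 10 genes, Endod1 being the other, and 10 motifs were searched on both strands of the 250 bases before each start. The 150-base windows below are printed 5′ to 3′ on the gene's strand, and capitals mark the motif named for each. For the Ctla2 pair the capitals are the AP-1 letters TGACTCA, held by 4.46% of the 32851 promoters searched. For Samd3 they are the T-box letters TCACACCT (1.12%), for Chst11 the GC box GGGCGG (32.7%) and for Chsy1 the E-box CACGTG (6.02%). Ctla2b lies at chr13:60897456-60897605, Ctla2a at chr13:60936626-60936775 (both minus strand), Samd3 at chr10:26229557-26229706, Chst11 at chr10:82985295-82985444 and Chsy1 at chr7:66109342-66109491 (these 3 plus strand).
Ctla2b: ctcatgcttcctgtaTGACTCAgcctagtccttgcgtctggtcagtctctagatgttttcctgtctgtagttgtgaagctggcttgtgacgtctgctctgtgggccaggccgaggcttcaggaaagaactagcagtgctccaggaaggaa
Ctla2a: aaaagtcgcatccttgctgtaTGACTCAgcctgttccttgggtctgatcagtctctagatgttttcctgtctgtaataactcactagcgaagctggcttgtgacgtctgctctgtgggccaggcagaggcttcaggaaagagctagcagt
Samd3: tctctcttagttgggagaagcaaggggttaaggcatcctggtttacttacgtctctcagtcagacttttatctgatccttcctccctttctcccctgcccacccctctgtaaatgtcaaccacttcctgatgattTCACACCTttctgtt
Chst11: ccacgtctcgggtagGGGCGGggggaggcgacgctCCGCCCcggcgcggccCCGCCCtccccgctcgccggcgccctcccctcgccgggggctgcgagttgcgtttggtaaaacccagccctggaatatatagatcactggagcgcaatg
Chsy1: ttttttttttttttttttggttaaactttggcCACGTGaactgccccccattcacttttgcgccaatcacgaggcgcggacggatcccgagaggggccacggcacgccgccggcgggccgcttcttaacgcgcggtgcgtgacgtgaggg
The 2 Ctla2 windows share most of their letters, and over the 250 bases before the start 208 of 228 aligned positions (91.2%) were identical. Their transcripts, 1373 bases for Ctla2a and 842 for Ctla2b, were 90.4% identical over 842 aligned bases. Their last 300 bases, where 3′ tags fall, matched at 57.1% of 273 aligned positions when aligned to each other. As the transcripts differ in length, these ends need not be the corresponding parts, and all of Ctla2b aligned within Ctla2a. How well tags separate the pair was not tested. The Samd3 match begins 15 bases before the start. A GC box was found in 6 of the 9 genes matched, a CCAAT box in 4 (33.8% of all promoters), an AP-1, T-box or E-box match in 1 each, and no ETS, TATA box, FOX, NF-kB or TCF/LEF match in any. These are letter matches only.

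In the genome (GENCODE M21, GRCm38) the 10 genes lie on 6 chromosomes. Chst11 (chr10:82985498-83195900), Samd3 (chr10:26229707-26272172) and Cirbp (chr10:80165985-80172786), on the plus strand, share chromosome 10, which holds 4.84% of genes with a mean count of 10 or more. Endod1 (chr9:14353990-14381507) and Tmie (chr9:110865711-110880113), on the minus strand, lie 39.1 and 57.3 Mb from Atm on chromosome 9. Dlg5 (chr14:24133953-24245920) and Rgcc (chr14:79288756-79301645), on the minus strand, share chromosome 14. Chsy1 (chr7:66109515-66173798, plus), Acot7 (chr4:152178134-152271855, plus) and Ctla2b (chr13:60895350-60897447, minus) lie on 3 others, and all 10 are protein coding.

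Total counts ran from 6470482 to 10196062 per library. Levels are given in CPM, read counts after scaling by library size, for single libraries or as mean ± SD (n = 3). A 3′ tag marks each transcript once, so CPM is not divided by length. The defining markers matched the labels: Cd4 measured 63.48 to 135.1 CPM among CD4 and 1.512 to 8.314 among CD8 libraries, while Cd8a measured 2.77 to 23.11 and 148.9 to 555.5. The KO and WT ranges of Atm did not overlap in any of the 4 comparisons, at 82.2 ± 2.58 against 177 ± 21.3 CPM in CD4 controls and 103.6 ± 12.8 against 204 ± 13.4 in CD8 controls. Since the disrupted part is not given, 3′ tags may lie outside it, and this level alone does not check the genotype. The CD8 KO lymphoma library 1 stood apart, with erythroid, neutrophil and B cell markers summing to 68800, 3609 and 1805 CPM, the highest sums of any library. In KO lymphoma replicate 3, Atm was lowest, at 24.0 CPM in CD4 and 40.5 in CD8 cells. Counts of calls are given with and without these pools below. In bulk RNA, fewer cells of a type and less RNA per cell cannot be told apart.

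The fitted log2 difference of KO minus WT was above 0 for Chst11, Chsy1, Dlg5, Acot7, Endod1, Samd3 and Ctla2b and below 0 for Rgcc, Tmie and Cirbp in both co-receptors and both conditions. It lay within its standard error of 0 for Dlg5 in CD4 controls (0.30 ± 0.73) and Cirbp in CD8 cells with lymphoma (-0.12 ± 0.16), where WT and KO libraries overlapped, and for Dlg5 it was -0.27 without CD4 WT control 1. These comparisons chose the genes, so the choice fixes the counts of calls below. They are given as a description, with the share of all genes called printed beside each and nothing read from it. Across the 40 pairs of gene and comparison, 21 passed an adjusted p of 0.05 in edgeR's quasi-likelihood test with Benjamini-Hochberg adjustment (15 higher, 6 lower). In CD8 controls all 10 passed, 7 higher and 3 lower, where 0.522% of all genes tested passed (0.403% higher, 0.119% lower). In CD4 controls 5 passed, Chsy1, Acot7, Endod1 and Ctla2b higher and Cirbp lower, where 2.01% of all genes did (1.94% higher, 0.0703% lower). With lymphoma 6 passed in CD8 cells, Chst11, Chsy1, Dlg5 and Samd3 higher and Rgcc and Tmie lower, where 0.245% of all genes did (0.0711% higher, 0.174% lower). None passed in CD4 cells with lymphoma, where edgeR called 0% of all genes, 1390 genes (10.9%) had an unadjusted p under 0.05 and DESeq2 called 85. WT and KO libraries did not overlap for 8 of the 10 genes in CD4 controls (33.6% of all genes), 5 in CD4 cells with lymphoma (12.6%), 10 in CD8 controls (25.2%) and 9 in CD8 cells with lymphoma (21.3%). All 10 kept their sign in the 4 comparisons, as did 43.5% of all genes. The 21 calls were 13, 11 and 13 without CD8 KO control 1, 2 or 3 and 11 without CD8 WT lymphoma 2, against 20 without CD8 KO lymphoma 1 and 18 without KO lymphoma replicate 3 of both co-receptors. Without CD4 WT control 1 all 5 calls in CD4 controls were lost (adjusted p 0.155 to 0.233 by edgeR). They were also all lost without CD4 KO control 1, 2 or 3 (0.0535 to 0.162). Of the genes tested in both co-receptors, 0.225% (28 genes) passed in the same direction in at least 2 of the 4 comparisons, and the 10 described here are among them. The others include Rplp1 (lower) and Tbx21 (higher), with 3 each. The call of the 10 nearest inside the threshold was Endod1 in CD8 controls (log2 1.16, adjusted p 0.0499 by edgeR), and the nearest value outside it was Tmie in CD4 controls (-1.03, adjusted p 0.0876).

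**Figure D1:**
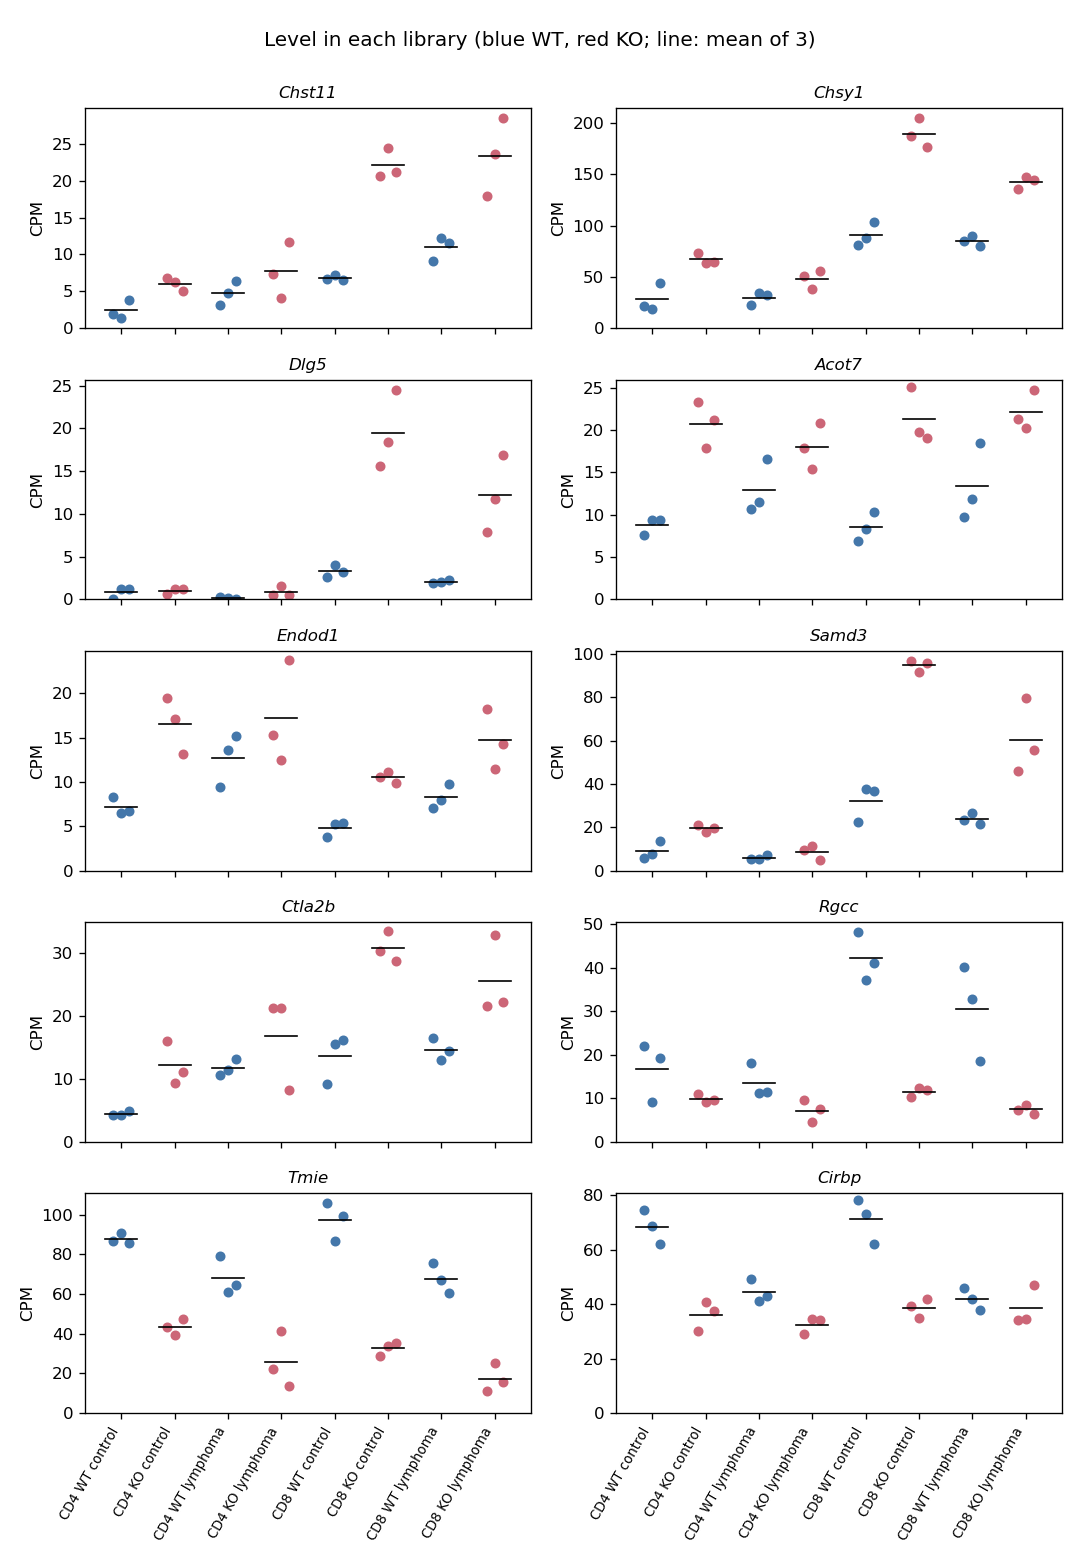
Level of each of the 10 genes in each library (CPM, one point per library, line at the mean of 3), by group. In CD8 controls the KO and WT libraries do not overlap for any of the 10 genes.

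Both chondroitin sulfate enzymes had more RNA in KO cells. Chst11 stood at 6.65, 7.25 and 6.49 CPM in the 3 CD8 WT control libraries and at 20.6, 24.4 and 21.2 in the CD8 KO controls. Every KO library was above every WT library, a 3.32-fold difference (log2 1.73 ± 0.20, SE). In CD4 cells the gene was weaker, at 2.41 ± 1.32 CPM in WT and 6.04 ± 0.943 in KO controls, and with lymphoma WT and KO overlapped (3.10 to 6.37 against 4.11 to 11.7 CPM). In CD8 cells with lymphoma they did not, at 9.17, 12.2 and 11.5 CPM in WT and 18.0, 23.6 and 28.4 in KO libraries. Chsy1 was the most abundant of the genes that were higher: 81.0, 87.7 and 103 CPM in CD8 WT controls and 187, 205 and 176 in CD8 KO controls. In CD4 controls it stood at 21.3, 18.9 and 43.8 CPM in WT and 73.4, 63.3 and 64.3 in KO cells, the WT library 3 lying well above the other two. With lymphoma the means were 29.9 ± 6.16 and 48.2 ± 8.75 CPM in CD4 and 85.1 ± 4.60 and 142 ± 5.93 in CD8 cells, so that the KO level lay below that of KO controls in both. Chsy1 and Tmie were the only members whose WT and KO libraries did not overlap in any of the 4 comparisons, where 1.35% of all genes tested share one such direction.

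Dlg5 had the widest gap. It stood at 2.57, 4.04 and 3.24 CPM in CD8 WT controls and 15.6, 18.4 and 24.5 in CD8 KO controls, a 6.01-fold difference. With lymphoma the CD8 values were 1.96, 1.99 and 2.26 CPM in WT and 7.90, 11.7 and 16.9 in KO mice. In CD4 cells Dlg5 was low, with 0 to 15 counts per library, and WT and KO controls overlapped. With lymphoma the CD4 values were 0.248, 0.225 and 0 CPM in WT and 0.579, 1.54 and 0.564 in KO libraries. These did not overlap, but the fitted difference (log2 2.36 ± 0.93) rests on 0 to 2 counts per WT library.

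Acot7 and Endod1 shifted by a like amount in both co-receptors. Acot7 stood at 7.63, 9.41 and 9.42 CPM in CD4 WT controls and 23.3, 17.9 and 21.1 in KO controls, and at 8.53 ± 1.70 and 21.3 ± 3.27 CPM in CD8 cells. Endod1 was at 7.16 ± 0.982 and 16.6 ± 3.17 CPM in CD4 WT and KO controls and at 4.805 ± 0.892 and 10.5 ± 0.607 in CD8 controls. For both genes the log2 difference between genotypes lay between 1.16 and 1.35 in controls and between 0.43 and 0.82 with lymphoma. With lymphoma Acot7 stood at 10.7, 11.5 and 16.6 CPM in CD4 WT and 17.8, 15.4 and 20.9 in CD4 KO libraries, which overlapped. Endod1 overlapped there too, at 9.44, 13.6 and 15.2 against 15.3, 12.5 and 23.8 CPM, and in CD8 cells both genes did not.

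Samd3 and Ctla2b were the other 2 genes with more RNA in KO cells. Samd3 stood at 22.7, 37.7 and 36.6 CPM in CD8 WT controls and 96.9, 91.5 and 96.1 in CD8 KO controls, with no overlap. With lymphoma the CD8 values were 23.6, 26.7 and 21.7 CPM in WT and 45.9, 79.5 and 55.5 in KO libraries, again with no overlap. In CD4 cells Samd3 was at 9.27 ± 4.11 and 19.5 ± 1.55 CPM in controls and overlapped with lymphoma (6.06 ± 1.11 and 8.58 ± 3.29). Ctla2b was at 4.20, 4.28 and 4.93 CPM in CD4 WT controls and 16.02, 9.36 and 11.005 in KO controls, and at 13.6 ± 3.79 and 30.8 ± 2.41 in CD8 cells. With lymphoma it stood at 10.6, 11.4 and 13.2 CPM in CD4 WT and 21.2, 21.2 and 8.23 in CD4 KO libraries, KO replicate 3 lying below all WT libraries. In CD8 cells with lymphoma the values were 16.5, 13.03 and 14.4 against 21.6, 32.85 and 22.1 CPM, with no overlap. Ctla2b made up 7.03 to 15.4% of the counts of the Ctla2a and Ctla2b pair in each library, so most reads of the pair were assigned to Ctla2a. Ctla2a itself was at 82.2 ± 16.8 CPM in CD8 WT and 229.9 ± 32.1 in CD8 KO controls, and summed with Ctla2b the CD4 control difference was 1.34 ± 0.49 on the log2 scale and no longer passed the threshold.

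Rgcc, Tmie and Cirbp had less RNA in KO cells. The CD8 values of Rgcc were apart: 48.2, 37.2 and 41.1 CPM in WT controls and 10.2, 12.4 and 11.9 in KO controls, and 40.2, 32.7 and 18.6 against 7.39, 8.55 and 6.46 with lymphoma. All KO libraries lay below all WT libraries in these, 3.56-fold lower in controls and 4.10-fold with lymphoma. In CD4 controls the libraries overlapped (9.04 to 22.0 CPM in WT, 9.16 to 11.1 in KO), and with lymphoma they did not (11.1 to 18.0 against 4.52 to 9.50). Tmie was at 106, 86.6 and 99.3 CPM in CD8 WT and 28.9, 33.7 and 35.4 in CD8 KO controls, and with lymphoma at 67.8 ± 7.58 and 17.3 ± 7.11. In CD4 cells it was at 87.7 ± 2.82 and 43.3 ± 3.86 CPM in controls and at 79.1, 61.1 and 64.4 against 22.4, 41.2 and 13.8 with lymphoma. The mean of Tmie was highest in WT controls and lowest in KO mice with lymphoma in both co-receptors. Cirbp was the 1 gene of the 10 whose WT and KO libraries came to overlap in CD8 cells with lymphoma, at 71.3 ± 8.18 and 38.8 ± 3.61 CPM in CD8 WT and KO controls but 41.8 ± 4.04 and 38.7 ± 7.38 with lymphoma. In CD4 cells it was at 68.4 ± 6.29 and 36.1 ± 5.53 CPM in controls and 44.4 ± 4.23 and 32.5 ± 3.12 with lymphoma, with no overlap.

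**Figure D2:**
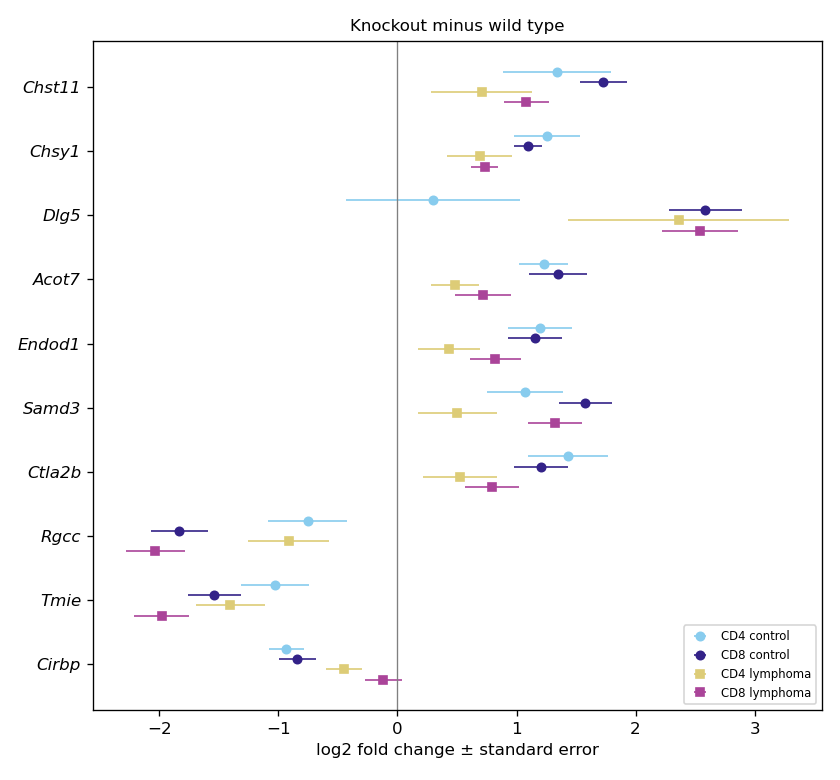
Log2 fold change of KO minus WT (± standard error) for each gene in the 4 comparisons. The 7 genes from Chst11 to Ctla2b sit above 0 and the other 3 below it in all 4 comparisons, and Cirbp in CD8 lymphoma lies nearest 0, at -0.12.

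For 7 of the 10 genes in CD4 and 8 of the 10 in CD8 cells the genotype difference was smaller with lymphoma than without. The widest CD8 change was Cirbp's (-0.84 without, -0.12 with lymphoma), and Rgcc and Tmie were the 2 genes whose CD8 differences grew. These are differences of the comparisons that chose the genes and carry no test. More calls fell in controls (5 in CD4, 10 in CD8) than with lymphoma (0 and 6). The choice itself therefore favours smaller differences with lymphoma, and the share of all genes is not given here.

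The response to lymphoma was tested, since it did not choose the genes, though it shares libraries with the comparisons that did. Cirbp passed between genotypes only in controls, and the same CD8 WT controls are the baseline of its lymphoma response below. Its p-value there is therefore not independent of the choice. Cirbp fell in WT CD8 cells, from 78.3, 73.3 and 62.3 CPM in the controls to 45.9, 41.9 and 37.8 with lymphoma (log2 -0.74 ± 0.15, adjusted p 0.0404, edgeR's quasi-likelihood test with Benjamini-Hochberg adjustment). No other of the 40 pairs of gene and response passed, against 1.42% of all genes called in that comparison (0.158% lower), 1.69% in CD4 WT, 2.18% in CD8 KO and 0% in CD4 KO cells (where 15.2% had an unadjusted p under 0.05 and DESeq2 called 343 genes). Of the 40, 18 had an unadjusted p under 0.05, 2 of them in CD4 KO cells. The share of all genes at that level is given for CD4 KO cells only, so nothing is read from the 18. The Cirbp call was lost without CD8 WT control 1, 2 or 3 (adjusted p 0.125, 0.0699 and 0.0659). It was lost without CD8 KO control 1, 2 or 3 (0.0561, 0.0556 and 0.0506) or CD8 WT lymphoma 2 or 3 (0.152 and 0.187). It was also lost with the replicate number as a block (log2 -0.74, adjusted p 0.0744). With the effector and memory score (-0.69, 0.0527) or the Y-linked score (-0.66, 0.0987) as a covariate it was lost too. Without CD8 WT control 1, Chsy1 in CD8 KO cells passed in its place (log2 -0.44 ± 0.11, adjusted p 0.0486). Other markers moved with it in CD8 WT cells: the sum of 10 pan T cell genes ran from 2295 to 2607 CPM in controls and 1574 to 2112 with lymphoma, though none of the 10 passed the test. Of 9 platelet genes 6 rose, and their sum was 66.98 to 115.7 CPM in controls and 282.8 to 361.4 with lymphoma. The sum of 11 macrophage and monocyte genes was 150.1 to 833.9 and 884.6 to 1497 CPM, that of 10 neutrophil genes 12.7 to 129.1 and 161.2 to 205.3, and that of 10 mitosis genes 128.4 to 179.6 and 239.5 to 482.3, with none passing. Blood progenitor genes (7, of which 6 were tested and 1, Adgrg1, rose) summed to 10.89 to 23.53 and 50.01 to 151.6 CPM. No gene of these lists was at 0 in all libraries of a group. Their part in the result was not tested. Y-linked genes, which are transcribed in male cells, summed to 56.85, 188.2 and 117.5 CPM in the 3 CD8 WT controls. With lymphoma their sums were 4.891, 1.462 and 159.2 CPM, so sex was not balanced in this comparison. In CD4 WT cells the log2 difference of Cirbp was -0.63 ± 0.15 (adjusted p 0.0553), and in KO cells it was -0.14 ± 0.15 in CD4 and -0.01 ± 0.16 in CD8. DESeq2 called 7 of the 40: Cirbp in both WT groups, Ctla2b in CD4 WT, Samd3 in CD4 KO, and Tmie, Chsy1 and Samd3 in CD8 KO cells.

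Near the threshold, Ctla2b in CD4 WT cells went from 4.47 ± 0.403 to 11.7 ± 1.33 CPM with lymphoma (log2 1.38 ± 0.34, adjusted p 0.0616) and did not overlap. Tmie in CD8 KO cells went from 32.7 ± 3.38 to 17.3 ± 7.11 CPM (log2 -0.93 ± 0.23, adjusted p 0.0531). Chsy1 in CD8 KO cells went from 189 ± 14.5 to 142 ± 5.93 (log2 -0.43 ± 0.11, adjusted p 0.0592), again with no overlap between libraries. Chst11 (log2 0.72 ± 0.20, adjusted p 0.0844) and Endod1 (0.80 ± 0.23, 0.0931) in CD8 WT cells and Samd3 in CD8 KO cells (-0.67 ± 0.22, 0.0885) followed. Libraries did not overlap for 5 of the 10 genes in CD4 WT (25.8% of all genes), 2 in CD4 KO (19.4%), 5 in CD8 WT (30%) and 5 in CD8 KO cells (27.2%). The count of 1 call stayed at 1 without CD8 KO lymphoma 1. It was 5 or 3 without CD4 KO lymphoma 2 or 3, and 4 or 2 without CD8 KO lymphoma 2 or 3. Without KO lymphoma replicate 3 of both co-receptors it was 4: Cirbp in both WT groups, Ctla2b in CD4 WT and Chst11 in CD8 WT cells. No difference in the lymphoma response between CD8 and CD4 cells passed edgeR's test for any of the 10 in either genotype (0% of all genes called). The 1 difference with an unadjusted p under 0.05 was that of Ctla2b in WT (log2 -1.29 ± 0.42, adjusted p 1).

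**Figure D3:**
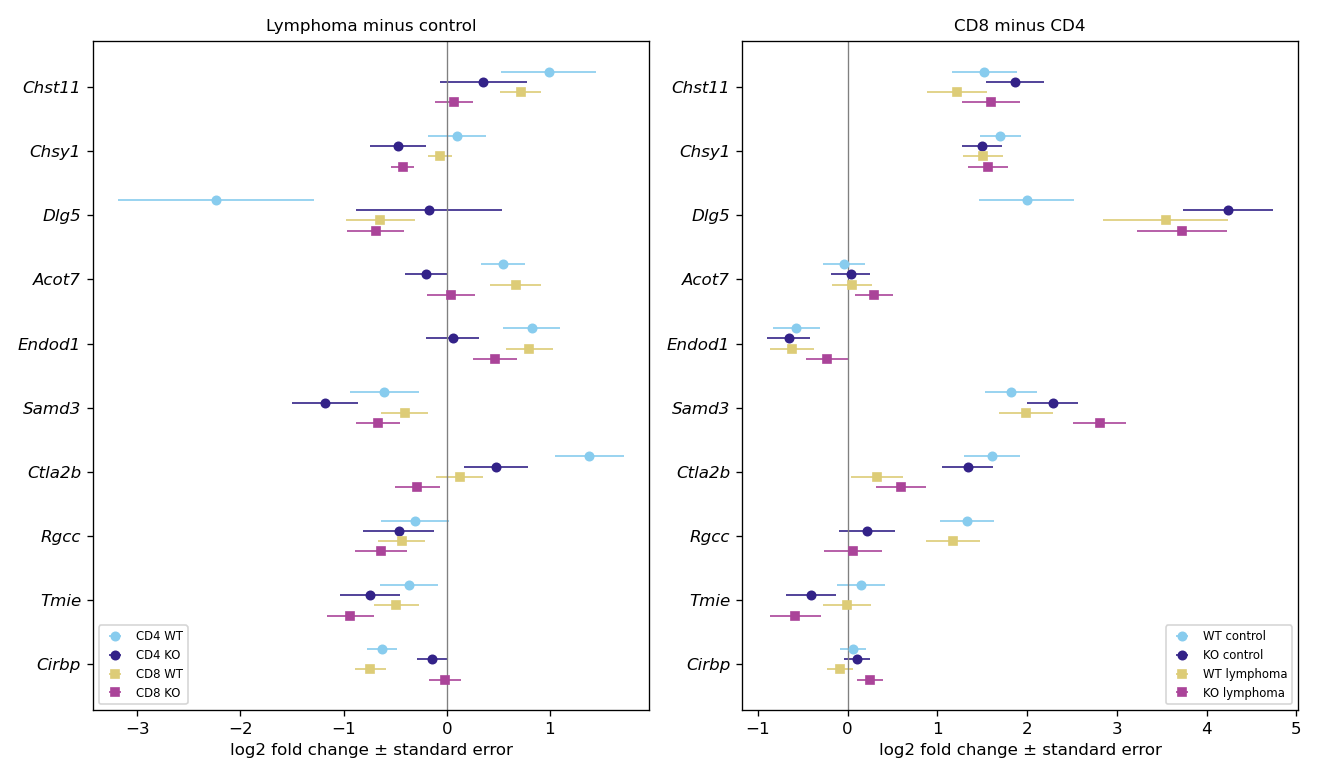
Log2 fold changes (± standard error) of lymphoma minus control (left) and CD8 minus CD4 (right) for each gene in its 4 comparisons, with a colour for each. At left Cirbp in CD8 WT cells (-0.74) is the 1 value that passed an adjusted p of 0.05, and at right Chst11, Chsy1, Dlg5 and Samd3 lie above 1 in all 4 comparisons.

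The chondroitin sulfate enzymes, Dlg5 and Samd3 stood higher in CD8 cells than in CD4 cells of the same mice. These comparisons did not choose the genes, but they share libraries with those that did. Chst11, Dlg5, Samd3, Rgcc and Tmie passed between genotypes in CD8 cells only, so the calls here are not independent of the choice. By edgeR's quasi-likelihood test with Benjamini-Hochberg adjustment, 19 of the 40 pairs passed, all higher in CD8, 6 of 10 in WT controls (1.86% of all genes called higher), 5 in KO controls (2.35%), 4 in WT with lymphoma (1.16%) and 4 in KO with lymphoma (1.11%). In either direction 3.48%, 4.95%, 2.54% and 2.35% of all genes passed. With the mouse pool as a block, calls over all genes went from 655 to 1186 in KO controls and from 311 to 542 in KO with lymphoma, and those of the 10 genes from 19 to 20. Chsy1, Dlg5 and Samd3 passed in all 4 groups, Dlg5 in WT with lymphoma on 0 to 2 counts per CD4 library. In KO controls Dlg5 stood at 0.667, 1.21 and 1.20 CPM in CD4 and 15.6, 18.4 and 24.5 in CD8 cells (log2 4.24 ± 0.50, adjusted p 1.17e-05). Samd3 was 2.28 ± 0.28 higher on the log2 scale in KO controls (adjusted p 2.07e-05) and 2.81 ± 0.29 in KO with lymphoma (5.17e-06), and Chsy1 between 1.498 and 1.70 in each group. The effector and memory list, described with the marker sums, moved too: 7, 10, 8 and 10 of its 24 genes were higher in CD8 cells of the 4 groups, and 2, 0, 1 and 1 lower. With its score as a covariate the calls numbered 14. Those lost were Chst11 in WT controls (log2 1.52 without and 1.32 with the score, adjusted p 0.1) and in KO with lymphoma (1.60 and 1.24, 0.321), Dlg5 in WT controls (2.00 and 1.76, 0.183), Ctla2b in KO controls (1.34 and 0.79, 0.139) and Rgcc in WT with lymphoma (1.17 and 1.38, 0.0707). The fold of Ctla2b moved most and that of Rgcc was larger with the score. Over all genes calls went from 460 to 329, 655 to 456, 336 to 206 and 311 to 143 in the 4 groups. Without CD8 KO lymphoma 1 the calls numbered 19, and without KO lymphoma replicate 3 of both co-receptors 20.

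Chst11 passed in 3 groups and missed in WT with lymphoma (log2 1.22 ± 0.34, adjusted p 0.0611). With the mouse pool as a block it passed there too (0.0257). Ctla2b passed in both controls (log2 1.61 ± 0.31 in WT, adjusted p 0.00292, and 1.34 ± 0.28 in KO, adjusted p 0.00604) and not with lymphoma. Rgcc passed in WT only (controls log2 1.33 ± 0.30, adjusted p 0.0136; lymphoma 1.17 ± 0.30, 0.0415), and in KO its levels were 9.94 ± 0.996 in CD4 and 11.5 ± 1.15 CPM in CD8 controls. Whether the genotypes differ in this was not tested, since that difference is made of the comparisons that chose Rgcc; its value was -1.12 ± 0.43 in controls. Acot7, Endod1, Tmie and Cirbp did not pass in any group.

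Some of these calls were lost when 1 library was left out. Where that library lay outside the 2 groups compared, the log2 difference hardly moved (1.173 for Rgcc with lymphoma, 1.995 to 1.997 for Dlg5), so these calls lay near the threshold. Chst11 in WT controls no longer passed when CD4 WT control 1 or 2, or control 1 or 2 of CD8 WT, was left out (adjusted p 0.128, 0.148, 0.0519 and 0.0716). Dlg5 in WT controls was lost without any of the 3 CD4 WT controls (0.188, 0.0524 and 0.0515), any of the 3 CD8 WT controls (0.0572, 0.142 and 0.0931), CD4 KO control 3 (0.0502), CD8 KO control 2 (0.0529) or CD8 WT lymphoma 2 (0.0514). For Rgcc in WT controls the call depended on CD4 WT control 2 (0.0816 when left out) and on control 1 of CD8 WT (0.0654). With lymphoma Rgcc was lost without CD4 WT lymphoma 2 or 3 (0.236 and 0.18), CD8 WT lymphoma 1 or 2 (0.275 and 0.153), CD4 WT control 3 (0.051), CD4 KO control 1, 2 or 3 (0.0549, 0.0566 and 0.0571), CD8 WT control 3 (0.0556) or CD8 KO control 2 or 3 (0.054 and 0.0564). Ctla2b in KO controls was lost without CD4 KO control 2 (0.0506), and with Ctla2a and Ctla2b summed neither Ctla2b call passed (0.373 and 0.163).

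Lists of related genes, chosen with results known, hold few that moved with the 10. Of 17 other chondroitin sulfate synthesis genes tested, 1 rose in KO CD4 controls (Chst15, log2 0.89 ± 0.19, adjusted p 0.0404 by edgeR) and none in the other KO comparisons. Chst15, which adds a further sulfate, and Dse, an epimerase of the chain, were higher in CD8 than CD4 WT controls (1.26 and 1.20 on the log2 scale), and B3gat3 and B4galt7, which build its linker, in KO controls (0.83 and 0.91). Of 7 carriers of the chain tested, Cd44 rose in KO controls (log2 0.99 ± 0.19 in CD4, adjusted p 0.0312, and 1.13 ± 0.20 in CD8, adjusted p 0.0348).
Of 11 other cathepsins and cathepsin inhibitors, the protease genes Ctsb, Ctsh and Ctsz rose in KO CD4 controls (0.88, 1.28 and 0.84), Ctla2a rose in KO CD8 controls (1.52), and Cst7, a cystatin, and Ctsw, a cathepsin of killer cells, were higher in CD8 cells of every group. Among the relatives of Dlg5, Dlg4 was lower in CD8 than CD4 cells in 3 of 4 groups. Acot11, of 10 other thioesterases, was lower in CD8 than CD4 cells of KO controls (-0.9975). Cdc25b, of 14 G2 and M phase regulators beside Rgcc, rose in KO CD4 controls (0.92). Samd14, of 9 relatives of Samd3, rose with lymphoma in WT cells and in CD8 KO cells. No gene passed in any comparison among the 10 cold-inducible and SR protein genes, the 3 tested hair cell channel genes or the 2 nuclease relatives of Endod1.

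Cell state markers moved with the genotype. The summed level of 24 effector and memory genes, none of them at 0, was 1319 to 2113 CPM among CD4 WT controls and 3357 to 3825 among KO controls, and 2041 to 2912 and 5025 to 5652 among those of CD8. With lymphoma the ranges were 1595 to 2655 against 2619 to 3244 in CD4 and 2496 to 3318 against 4238 to 5340 in CD8 cells. In KO cells 11 of the 24 rose in CD4 controls, 7 in CD8 controls and 2 in CD8 with lymphoma. In CD4 controls the sum of 12 naive T cell genes was 3431 to 3659 CPM in KO against 4353 to 5350 in WT, with none passing, and that of 10 NK genes 322.6 to 407.6 against 77.37 to 242.2, with 2 passing. With the effector and memory score as a covariate, none of the 21 genotype calls passed, but calls over all genes also went from 257 to 0 in CD4 controls, 66 to 0 in CD8 controls and 31 to 1 in CD8 cells with lymphoma. The median size of the log2 difference over the 10 genes went from 1.14 to 0.472 (CD4 controls) and 1.44 to 0.839 (CD8 controls), while 8 and 10 of 10 kept their sign. That score itself differs between the genotypes. Other lists differed between KO and WT CD4 controls as well. Macrophage and monocyte genes summed to 1043 to 1379 against 394.6 to 743.5 CPM (7 of 11 called), platelet genes to 171.8 to 344.2 against 114.6 to 129.6 (4 of 9) and regulatory T genes to 539.7 to 583 against 364.5 to 454.7 (2 of 8). B cell genes summed to 783.7 to 941.9 against 202.3 to 633.1 CPM (1 of 10 called). Sums of neutrophil (171 to 192.4 against 28.74 to 141.4), blood progenitor (42.06 to 49.94 against 12.6 to 17.79), gamma-delta T (30.4 to 36.23 against 17.6 to 24.52) and mitosis genes (235.2 to 554.6 against 134.7 to 148.9) did not overlap either, with none called. Erythroid sums were 4886, 33730 and 18740 CPM in KO and 821.1, 468.4 and 9111 in WT CD4 controls, which overlapped, with none called. In CD8 controls the macrophage, platelet, blood progenitor and gamma-delta T sums were again above those of all WT libraries, the neutrophil, B cell and mitosis sums overlapped, and regulatory T genes summed to 144.7 to 151.1 against 155.7 to 170.2 CPM (1 of 8 called, lower).

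In CD4 controls 3 Y-linked genes summed to 1.208 to 56.44 CPM in KO against 68.53 to 199.6 in WT. In CD8 controls the ranges were 2.872 to 70.14 and 56.85 to 188.2. KO controls 1 and 2 held almost no such RNA (2.574 and 1.208 CPM in CD4 cells), while KO control 3 and all WT controls held more. Sex was therefore not balanced between the genotypes in controls, and sex and genotype cannot be fully told apart there. With the Y-linked score as a covariate, calls numbered 12. They went from 5 to 3 in CD4 controls, 10 to 4 in CD8 controls and 6 to 5 in CD8 cells with lymphoma. All 10 genes kept their sign in each comparison. The median size of the log2 difference was 1.18 against 1.14 without the score in CD4 controls and 1.57 against 1.44 in CD8 controls. In CD8 cells with lymphoma it was 0.97 against 0.952. These values carry no test, since the same comparisons chose the genes. Calls over all genes went from 257 to 393, 66 to 14 and 31 to 41 in these comparisons. For the lists other than the effector and memory and the Y-linked genes, their part in the result was not tested.

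**Figure D4:**
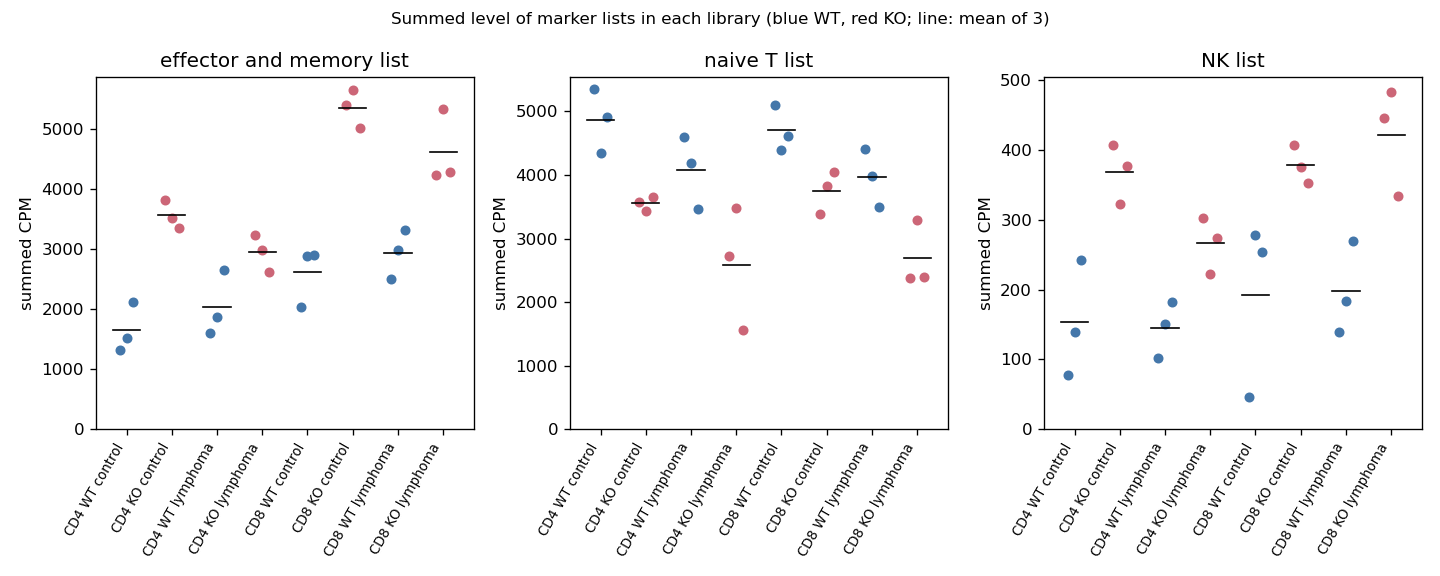
Summed CPM of the effector and memory, naive T and NK lists in each library (points; line, mean of 3; blue WT, red KO). KO control libraries lie above all WT controls for the effector and memory and the NK list, and below them for the naive T list.

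Over the 24 libraries, after the mean of each co-receptor was subtracted, the 10 genes went together in 2 blocks. Pearson r was positive between all pairs of the 7 genes that were higher in KO cells (0.333 to 0.897, the highest for Acot7 and Endod1) and between the 3 that were lower (0.652 to 0.834), and negative between the blocks (-0.887 to -0.308). These are descriptions. The genes were chosen on differences between genotypes in these libraries, and the genotype, which sets much of the variation, was not subtracted. The signs of r within and between blocks therefore follow largely from the choice, and the points share libraries. Of the non-members most like each gene, those reported are Mapre2 and Runx2 for Chst11 (r 0.927 and 0.918), Ifnar2 and Tbx21 for Chsy1 (0.932 and 0.924), and Gzmm for Dlg5 (0.872). For the rest they are Pde4a and S100a6 (Acot7), Unc119 and Cd44 (Endod1), Prf1 and Klrc1 (Samd3), Ctla2a and Nod1 (Ctla2b), Gpr83 and Adpgk (Rgcc), Lef1 and Ampd1 (Tmie) and Rbm4 and Zfp639 (Cirbp), with r from 0.857 to 0.96.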

How the data were processed

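The table the authors deposited holds an estimated count for every gene and library. Salmon 0.11.3 is named, with no role given, per the submitters' processing notes. A human build (GRCh38) is listed there for these mouse samples, and no position here comes from it. Libraries were made with the QuantSeq 3′ FWD kit and T cells with an EasySep kit, per the labels' protocols.

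Of 34113 genes, 2 with a letter in place of a number were dropped. Counts were rounded and tested with edgeR 4.0.16 (R 4.3.3): filterByExpr (minimum count 10, minimum total 15), trimmed mean of M values, robust quasi-likelihood test and Benjamini-Hochberg adjustment at 0.05 over all genes tested (12808 in CD4, 12650 in CD8, 13232 in all). Each co-receptor was fitted with its 12 libraries, and CD8 against CD4 with all 24. CPM used the scaling over 24 libraries. Depth was 6470482 to 10196062 counts per library, and no 2 replicates agreed within sampling noise (lowest chi-square per degree of freedom 4.66 over 24 pairs). P-values measure the spread between libraries, which are pools of 1 to 3 mice.

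The 10 genes and all lists were chosen with earlier results of these data known. Named genes were the 10, Atm, up to 3 called genes of each list, the 2 genes most like each member (mean CPM at least 5, log2 CPM with prior count 2) and genes called in at least 3 of the 4 genotype comparisons. CD4 and CD8 libraries of 1 number come from the same mice, with residual correlations of -0.0284 to 0.557 over 12 pairs. Mice with a B in their identifier (B-numbered) made up all of WT control 3 and KO controls 2 and 3. They were 1 of 2 mice in KO lymphoma 1 and absent from the other pools, so their share differed between genotypes and conditions. Alternatives were DESeq2 1.42.0 and its size factors, limma 3.58.1 voom, a stricter filter (30 counts in 3 libraries) or none, 3 covariates, the replicate block, all 24 or only the 6 compared libraries in 1 fit, Ctla2a summed with Ctla2b and each library left out. After the data were seen, KO lymphoma replicate 3 of both co-receptors was also left out. The code was tested on simulated counts. Of simulated 2-fold changes it recovered 46 of 98 for CD4 and 45 of 99 for CD8 WT lymphoma against control, and 50 of 99 for CD8 against CD4 WT controls. Of 4-fold changes it recovered 85, 87 and 79 of 100. A gene that did not pass may therefore still differ by 2-fold. Some genes that the naming rule selects are not reported here. Promoters were compared with Biopython 1.88.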

Additional observations from a re-analysis of the deposited data

How the results depend on the processing

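Of the 40 pairs of gene and comparison, calls between genotypes (21) numbered 20 with DESeq2 size factors or no filter, 26 with DESeq2, 18 with 24 libraries in 1 fit, 15 with only the 6 compared and 14 with the replicate block, but 12 with the share of B-numbered mice or the Y-linked score as a covariate and 0 with the effector and memory score. With only 6 libraries all 6 calls in CD8 cells with lymphoma (adjusted p 0.108 to 0.178 by edgeR), Chsy1 in CD4 controls (0.0578) and Endod1 in CD8 controls (0.0642) were lost, at nearly the same log2 differences, and Samd3 and Tmie in CD4 controls were gained. Leaving out 1 library gave 11 to 23. They fell over 1.5 times without CD8 KO control 1 (13), 2 (11) or 3 (13) or CD8 WT lymphoma 2 (11), and were 20 without CD8 KO lymphoma 1.

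Calls for lymphoma (1) numbered 2 with no filter and with the stricter filter, 7 with DESeq2 and with voom, 3 with 24 libraries in 1 fit and 4 with only 6. They were 0 with the Y-linked score, the effector and memory score or the replicate block, and 0 to 5 with 1 library left out. Without KO lymphoma replicate 3 of both co-receptors they were 4, while genotype calls were 18 and CD8 against CD4 calls 20. Calls of CD8 against CD4 (19) stayed between 14 and 21 under every setting run, 16 to 20 with 1 library left out, and the block gave 20.

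Signs reversed for Rgcc in KO lymphoma CD8 against CD4 with voom (-0.14) and with 1 library left out (range -0.19 to 0.31; without CD4 or CD8 KO lymphoma 2, -0.19 and -0.048). With the effector and memory score they reversed for Dlg5 (-0.98) and Samd3 (-0.77) in CD4 controls, Samd3 (-0.46) and Ctla2b (-0.14) in CD4 lymphoma and Cirbp in CD8 lymphoma (0.061) between genotypes, and Ctla2b in KO lymphoma CD8 against CD4 (-0.13). Without CD4 WT control 1, Dlg5 in CD4 controls was -0.27 between genotypes (range -0.27 to 0.72 with 1 library left out), and the near-0 response of Cirbp in CD8 KO cells ranged from -0.20 to 0.074, above 0 in 5 such fits (CD8 WT control 2, KO control 1 or 3, KO lymphoma 1 or 2). Of the single values, 857 were unchanged in call and sign under other settings, 78 lost and 41 gained a call. The cause of these changes was not tested.

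Replicate numbers within a co-receptor mark different mice (residual correlations -0.158 to 0.336 over 24 pairs). Dlg5 in CD4 cells had at most 15 counts per library, which limits the precision of its CD4 values. Over all genes the block lowered calls in the CD8 KO response from 276 to 25 and in CD8 KO against WT with lymphoma from 31 to 17. DESeq2 raised those between genotypes from 257 to 789 in CD4 controls, 66 to 375 in CD8 controls and 31 to 531 in CD8 cells with lymphoma, and those for lymphoma from 216 to 678 (CD4 WT), 180 to 799 (CD8 WT) and 276 to 1499 (CD8 KO).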
